A study of Mus musculus with 75 samples.

Results

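The transcripts described here are those of 10 genes of the endoplasmic reticulum (ER) chaperone system and the unfolded protein response (UPR), among 55536 genes in the count table. They were chosen by name, as the rows for *Hspa5*, *Hsp90b1*, *Pdia4*, *Calr*, *Creld2*, *Serpinh1*, *Xbp1*, *Atf4*, *Ddit3* and *Trib3*, and all 10 passed the filter on low counts. RNA from the inferior lung lobe was sequenced in 75 male C57BL/6JRj mice, 1 library per mouse. The stated age of 12 to 14 weeks is the age when bleomycin was given, so mice of later days were older at sampling. BLEO-IPF mice had been given bleomycin (BLEO), a cytotoxic drug that damages lung epithelium, once into the trachea, and groups were terminated on day 7 (n = 10), 14, 21, 28, 35 (n = 12 each) or 42 (n = 7). The 10 control mice (CTRL) carried the label saline, although the treatment notes call them untreated. Randomization was restricted to animals whose weight loss by day 6 was mild to moderate, so stronger or absent weight loss is not represented. The labels name no transgene, and each day was a separate set of animals.

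Secreted and membrane proteins fold in the ER with the help of chaperones such as BiP (*Hspa5*), GRP94 (*Hsp90b1*) and calreticulin (*Calr*) and of disulfide isomerases such as *Pdia4*. When unfolded protein accumulates, the sensors IRE1, PERK and ATF6 start the UPR, in which IRE1 splices the mRNA of *Xbp1*, PERK favors translation of *Atf4*, and ATF6 and XBP1 raise chaperone genes. ATF4 acts on amino acid and stress genes including *Ddit3* (CHOP) and *Trib3*. Fibrosis adds another load, because fibroblasts fold procollagen in the ER with HSP47, the collagen chaperone encoded by *Serpinh1*.

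Chaperone genes are known for the ER stress response element (ERSE), an NF-Y box held at a fixed distance from a CCACG box and written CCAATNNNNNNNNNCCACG, where N is any base. Read on both strands of the RefSeq promoter windows of GRCm38.p6, from 250 bases before to 50 bases after each gene start, the element stood in 39 of 32851 windows (0.119%) and in those of 4 of the 10 members. Hspa5 had 1 match, between 65 and 47 bases before the RefSeq start and inside the longer Ensembl gene model. With flanking bases it fills the 29-base stretch chr2:34772020-34772048 of the forward strand. Hsp90b1 held 2 matches in the stretch chr10:86705510-86705694 of the reverse strand, Calr 1 in chr8:84846935-84847181 of the reverse strand, and Creld2 1 in chr15:88819396-88819645 of the forward strand. These stretches are shown 5′ to 3′ with the element in capitals as the only member windows that hold it, and apart from the Hspa5 site they end before the first annotated exon:
Hspa5: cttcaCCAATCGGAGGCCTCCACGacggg
Hsp90b1: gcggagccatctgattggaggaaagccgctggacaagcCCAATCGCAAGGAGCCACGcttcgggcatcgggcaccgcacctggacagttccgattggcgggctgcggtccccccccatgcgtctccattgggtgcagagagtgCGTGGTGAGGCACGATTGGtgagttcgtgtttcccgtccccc
Calr: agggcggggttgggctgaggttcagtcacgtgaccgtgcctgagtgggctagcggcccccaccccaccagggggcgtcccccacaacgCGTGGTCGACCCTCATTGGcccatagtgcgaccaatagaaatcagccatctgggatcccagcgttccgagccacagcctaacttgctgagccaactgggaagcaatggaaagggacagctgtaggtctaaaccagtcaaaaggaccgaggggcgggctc
Creld2: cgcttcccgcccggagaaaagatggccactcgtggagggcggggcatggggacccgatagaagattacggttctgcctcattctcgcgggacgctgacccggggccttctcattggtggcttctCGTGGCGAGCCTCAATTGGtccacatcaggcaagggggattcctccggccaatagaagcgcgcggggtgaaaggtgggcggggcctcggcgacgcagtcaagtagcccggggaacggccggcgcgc
In Calr, Creld2 and the second site of Hsp90b1 the element lies on the opposite strand, so the CCACG box reads as CGTGG. The related element ERSE-II (in 0.0365% of windows), and the letters TGACGTGG (an XBP1 element, 0.676%) and TTGCATCA (a C/EBP-ATF site, 0.895%) were in none of the member windows, so no overlap with an ERSE match arose there. A match describes the letters only.

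All 10 are protein-coding, and their counts were taken over whole genes. On GRCm38 the chaperone genes lie with *Hspa5* at chr2:34771970-34777547, *Hsp90b1* at chr10:86690209-86705509, *Pdia4* at chr6:47796141-47813430, *Calr* at chr8:84841850-84846934, *Creld2* at chr15:88819646-88826683 and *Serpinh1* at chr7:99345376-99353239. The transcription factor genes and the pseudokinase lie with *Xbp1* at chr11:5520659-5525893, *Atf4* at chr15:80255184-80257541, *Ddit3* at chr10:127290774-127296288 and *Trib3* at chr2:152337422-152344032.

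The libraries held 9240291 to 14665247 counts each. Alveolar epithelial, club, ciliated and endothelial markers were expressed in all groups, as the lung label implies, but many were lower after BLEO. From CTRL to day 14 the median summed level went from 24753 to 12878 CPM for AT2 markers (6 of 8 lower), from 26060 to 7111 CPM for club cell markers (3 of 4 lower) and from 274 to 139 CPM for ciliated cell markers (5 of 5 lower). Endothelial markers had 4 of 6 lower and 1 higher, and B cell markers 8 of 8 lower. Markers of transitional alveolar epithelial cells went the other way, with 5 of 6 higher and a summed median from 488 to 827 CPM. The part of these shifts in the member levels was not tested. Of the 12 libraries of day 28, that of mouse 10 stood apart, with summed markers of skeletal muscle at 1216 CPM against a group median of 4.99 CPM and of brown adipose tissue at 376 CPM against 1.29 CPM. Values of day 28 without it stand beside *Hspa5* and *Serpinh1*, and the count of members called on that day was 6 with and without it. A mouse of day 7 had brown adipose markers at 109.6 CPM. In bulk lung RNA, more cells of a type and more RNA per cell cannot be told apart. The labels name separate mice, so the spread is between animals.

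On the CPM scale, divided by exonic length, the members spanned a wide range in CTRL lungs. *Hsp90b1* was the most abundant at 179 CPM per kilobase, followed by *Calr* at 158, *Hspa5* at 128 and *Serpinh1* at 122 CPM per kilobase. *Ddit3* at 11.0 and *Trib3* at 3.17 CPM per kilobase were the least abundant, and *Trib3* rested on 50 to 128 counts per mouse. On day 14 the order at the top had changed, with *Serpinh1* first at 255, *Calr* next at 234 and *Hsp90b1* at 207 CPM per kilobase.

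**Figure D1:**
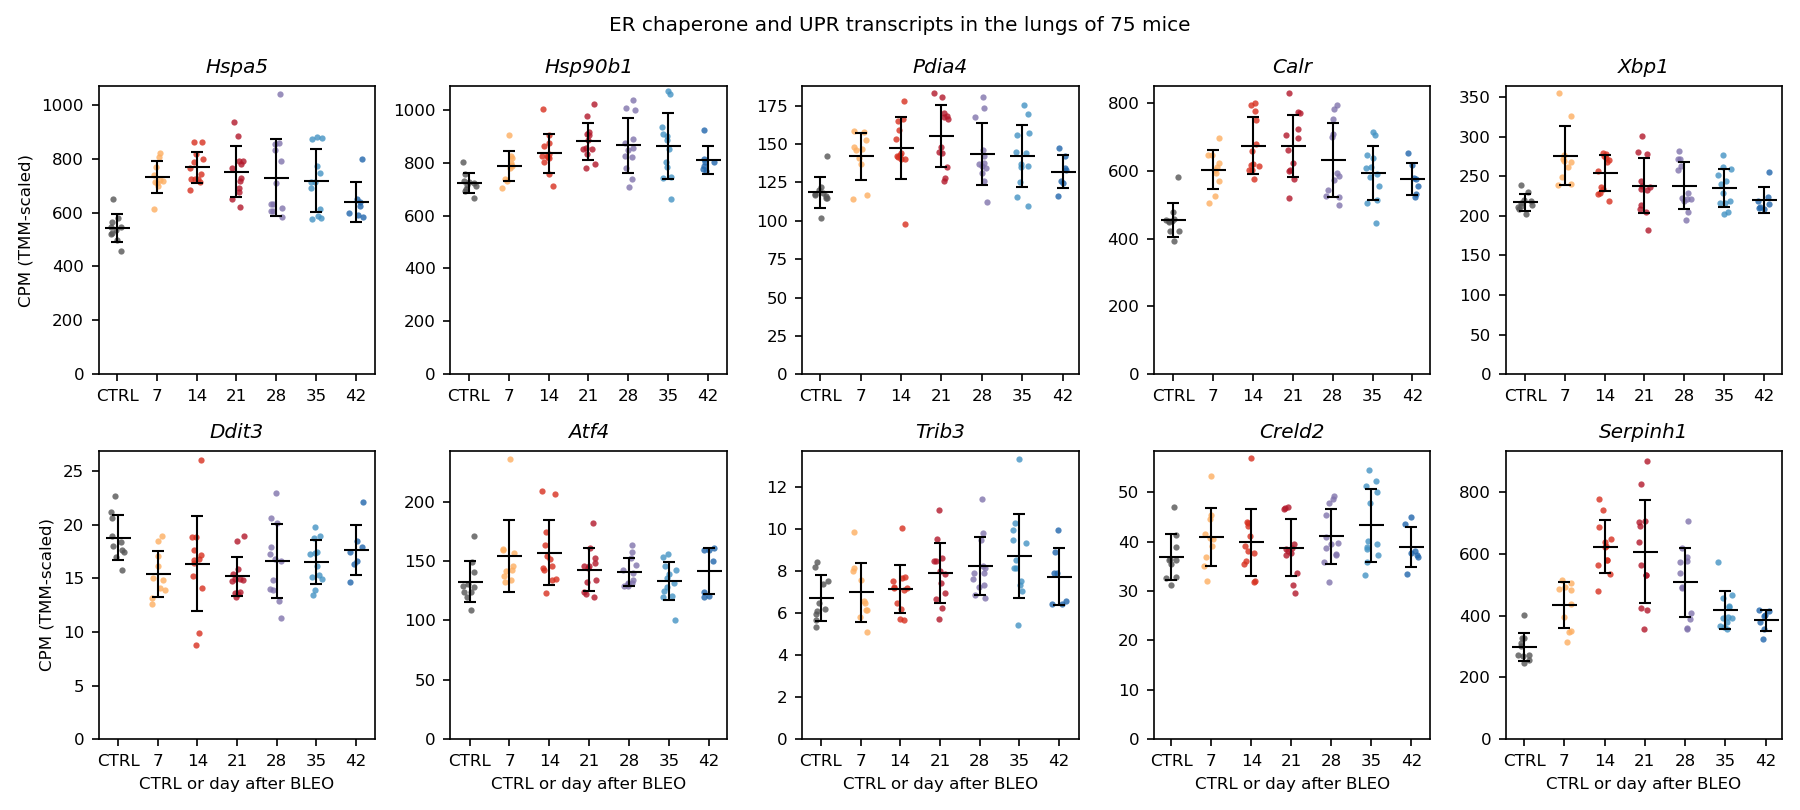
Level of each transcript in CPM (linear axis from 0) in CTRL mice and on each day after BLEO; points are mice, the horizontal mark is the mean and the bars are 1 SD between mice (n = 10, 10, 12, 12, 12, 12 and 7). *Serpinh1* and *Hspa5* lie above every CTRL mouse in all 12 mice of day 14, whereas *Ddit3* lies mostly below the CTRL mean.

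Of the 10 members, 7 passed the test on day 7, 6 as higher and *Ddit3* as lower, where 45.8% of all genes tested passed, 24.8% as higher and 21% as lower. Day 14 gave 7 higher members and none lower (62.4% of all genes called, 32.4% as higher). Day 21 gave 5 higher members and *Ddit3* lower (54.2%, with 28.3% higher and 25.8% lower). Day 28 gave 6 higher members (43.3%, with 24.1% higher), day 35 gave 7 (29.9%, with 16.9% higher) and day 42 gave 3 (24.7%, with 13.7% higher). The share of members called was near that of all genes on days 14, 21 and 42 and above it on days 7, 28 and 35, and all calls but those of *Ddit3* were in the higher direction. The median log2FC of the members was 0.24, 0.23, 0.26, 0.27, 0.26 and 0.16 in order of days, against medians of all genes between -0.00 and 0.02. All 6 comparisons share the same CTRL mice. The count for day 42 was sensitive to single mice, being 1 in place of 3 without CTRL mouse 7 or 9 or without day 42 mouse 1, 3, 5 or 7.

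**Figure D2:**
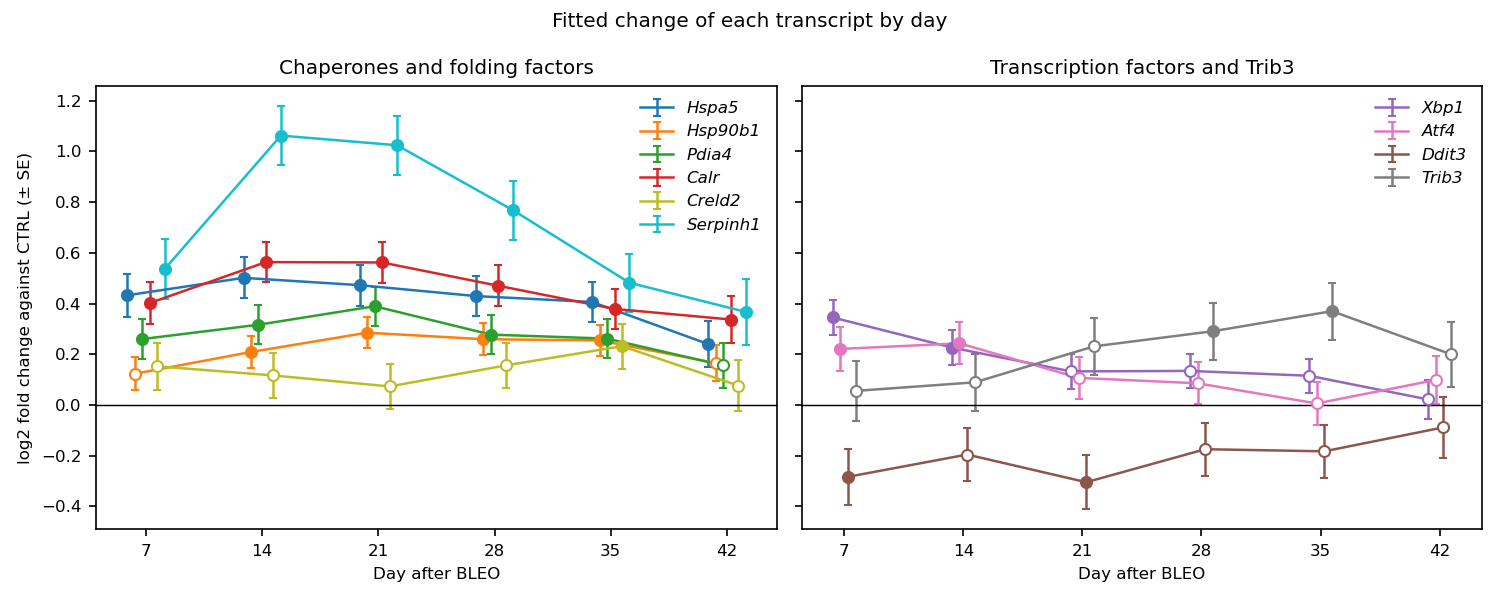
Fitted log2FC against CTRL (y axis) by day after BLEO (x axis), with bars of 1 SE; filled points have an adjusted p under 0.05 and open points do not, and points of a day are spread sideways for legibility. *Serpinh1* peaks at 1.06 on day 14, the other chaperones stay between 0.07 and 0.56, *Xbp1* and *Atf4* have their highest values on days 7 and 14 and *Ddit3* stays below 0.

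*Hspa5* encodes BiP, the ER Hsp70 that also holds the UPR sensors inactive. Its level in CTRL mice ran from 455.8 over a median of 540.2 to 650.3 CPM, and on day 14 from 683.3 over 755.2 to 862.5 CPM, so the groups did not overlap, which held for 9.46% of all genes in the higher direction. On day 42 it ran from 582.4 over 624.7 to 797.4 CPM, with 1 of 7 mice above all CTRL mice. The log2FC was 0.43 ± 0.08 (SE) on day 7 (adjusted p = 1.97e-05), 0.50 ± 0.08 on day 14 (adjusted p = 2.05e-07) and 0.41 ± 0.08 on day 35 (adjusted p = 5.70e-05). Across days 7 to 35 the level hardly moved, with day-to-day differences of at most 0.10 and adjusted p-values of 0.317 or above. Day 42 was lower than day 14 by a log2FC of -0.26 ± 0.09 (adjusted p = 0.0186). It was higher than CTRL by 0.24 ± 0.09 (adjusted p = 0.0457), but this call was lost without any 1 of 14 of the 17 mice, all but CTRL mice 2 and 8 and day 42 mouse 4, and without a filter on low counts. Day 28 spread widest, from 585.0 to 1040 CPM, and without mouse 10 its log2FC was 0.45 against 0.43 with it.

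*Calr* encodes the lectin chaperone of the calnexin cycle, which retains glycoproteins until they are folded. It ran from 393.1 over 451.0 to 581.4 CPM in CTRL mice and from 576.4 over 639.2 to 800.0 CPM on day 14, when 11 of 12 mice exceeded every CTRL mouse. The log2FC was 0.56 ± 0.08 on day 14 (adjusted p = 1.15e-08) and 0.56 ± 0.08 on day 21 (adjusted p = 2.01e-08). On day 42 it was still 0.34 ± 0.09 (adjusted p = 0.00451), with all 7 mice above the CTRL median. *Calr* was the only member whose call on day 42 held without each single mouse in turn. It was also lower on day 42 than on day 14, by a log2FC of -0.23 ± 0.09 (adjusted p = 0.0412).

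The other ER chaperones moved less. *Hsp90b1*, the ER Hsp90, ran from 668.4 over 719.4 to 801.9 CPM in CTRL mice and from 778.7 over 870.3 to 1022 CPM on day 21, with 10 of 12 mice above all CTRL mice. Its log2FC was 0.12 ± 0.06 on day 7 (adjusted p = 0.110), rose past the threshold from day 14 (0.21 ± 0.06, adjusted p = 0.00262) to day 35, and was 0.17 ± 0.07 on day 42 (adjusted p = 0.0760). *Pdia4*, a protein disulfide isomerase, ran from 102.2 over 117.3 to 142.5 CPM in CTRL mice and from 126.3 over 157.1 to 183.6 CPM on day 21. Its log2FC reached 0.39 ± 0.08 on day 21 (adjusted p = 1.98e-05) and was 0.16 ± 0.09 on day 42 (adjusted p = 0.192). Both genes thus overlapped with CTRL mice on all days, and neither differed between any pair of BLEO days. Overlapping genes on the other strand held 0.325% of the counts of *Hsp90b1*.

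*Creld2*, a small ER protein with isomerase activity, carries the same promoter element and passed the test on the fewest days among the chaperone genes. It ran from 31.2 over 36.3 to 46.9 CPM in CTRL mice, from 31.9 over 38.6 to 57.02 CPM on day 14 and from 33.2 over 39.8 to 54.5 CPM on day 35, overlapping throughout. On day 14 its log2FC was 0.12 ± 0.09 (95% interval -0.06 to 0.29). It passed the test only on day 35 (0.23 ± 0.09, adjusted p = 0.0395). That call was lost without any 1 of CTRL mice 1, 4, 5, 7, 8, 9 or 10 or of day 35 mice 1, 4, 5, 7 or 8, and without a filter on low counts.

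*Serpinh1*, the collagen-specific chaperone HSP47, changed most among the members. It ran from 246.4 over 287.4 to 401.2 CPM in CTRL mice, from 316.0 over 460.5 to 514.6 CPM on day 7 and from 478.6 over 625.1 to 779.2 CPM on day 14. On day 42 it ran from 324.8 over 397.7 to 418.3 CPM. All 12 mice of day 14 were above all CTRL mice, and 3 of 7 were on day 42. The level on day 14 was 2.09-fold that of CTRL mice (log2FC 1.06 ± 0.12, adjusted p = 4.06e-12), and 1.44-fold that of day 7 (log2FC 0.53 ± 0.11, adjusted p = 0.000859). It was the only member that differed between days 7 and 14, a comparison in which 17.0% of all genes did. From day 14 it fell by 0.30 to day 28 (adjusted p = 0.0372), by 0.58 to day 35 (adjusted p = 1.91e-05) and by 0.70 to day 42 (adjusted p = 2.68e-05) on the log2 scale. On day 42 it remained above CTRL by 0.37 ± 0.13 (adjusted p = 0.0307), a call lost without CTRL mouse 7 or 9 or day 42 mouse 1, 3, 4, 5 or 7, and without a filter on low counts. Without day 28 mouse 10 the log2FC of that day was 0.81 against 0.77 with it.

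Fibroblast and myofibroblast markers moved with *Serpinh1*. The summed level of the 9 markers had a median of 3144 CPM (2815 to 3581) in CTRL mice, 10127 CPM (6516 to 17336) on day 14 and 4155 CPM (3298 to 5007) on day 42, and 8, 8 and 1 of the 9 differed on day 14 against CTRL, day 42 against day 14 and day 42 against CTRL. Their part in the *Serpinh1* level was not tested. Between mice of 1 group, *Serpinh1* and *Col1a1*, which encodes a collagen I chain and is among those markers, were positively related in all 7 groups, with Pearson's r from 0.15 (day 42) to 0.74 (day 21). On day 21 Spearman's rho was 0.77 (permutation p = 0.00462, 0.0485 after adjustment over 42 tests) and r was 0.74 (permutation p = 0.00650, adjusted 0.0546), or 0.76 without the 2 mice farthest from the median. In the other 6 groups neither coefficient passed the adjusted threshold.

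**Figure D3:**
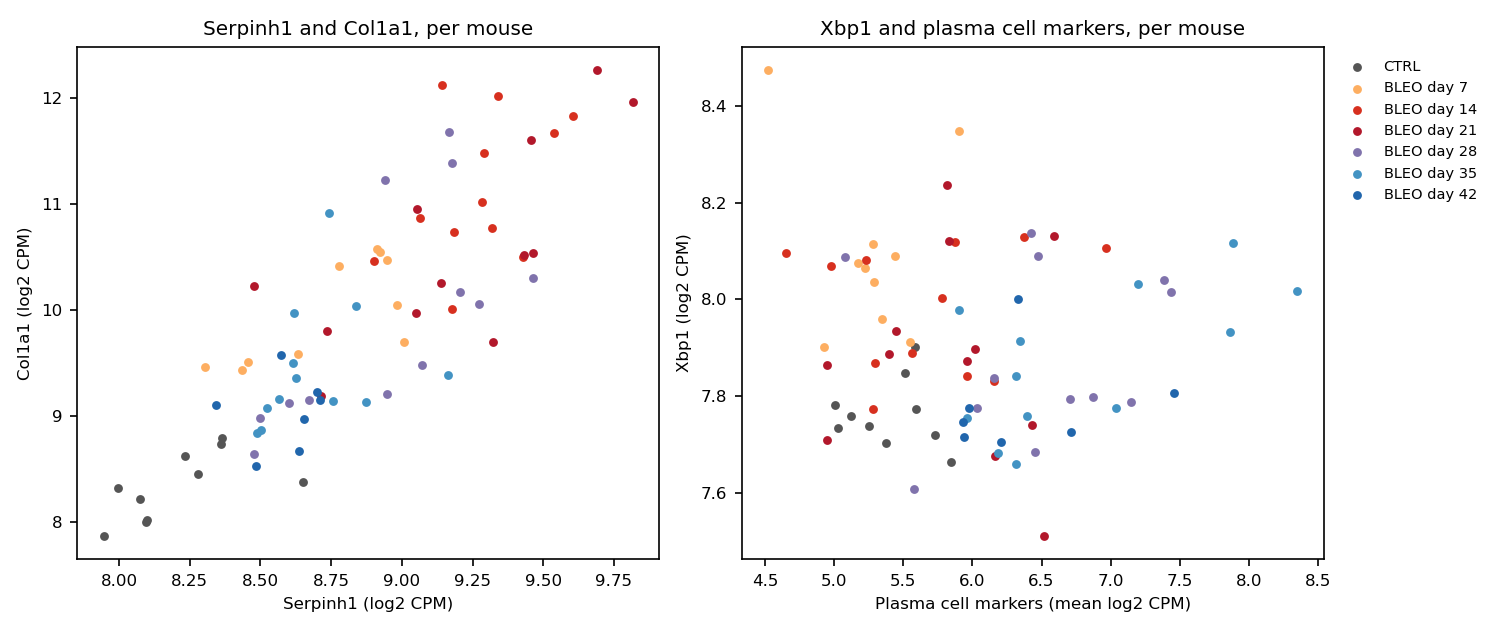
Log2 CPM per mouse of *Serpinh1* (x axis) and *Col1a1* (y axis) on the left, and of the mean of plasma cell markers (x axis) and *Xbp1* (y axis) on the right, colored by group. Both genes on the left reach their highest values on days 14 and 21 and most CTRL mice lie at the lower left, whereas the 3 mice with the highest plasma cell markers, all of day 35, have *Xbp1* levels within the range of the other mice.

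Of the UPR transcription factors, *Xbp1* and *Atf4* were higher on days 7 and 14 and *Ddit3* was lower on days 7 and 21. *Xbp1*, whose spliced mRNA encodes the active factor, was highest on day 7, running from 238.8 over 268.6 to 355.3 CPM against 202.7 over 214.9 to 238.8 CPM in CTRL mice. All 10 mice of day 7 lay above all CTRL mice, the lowest by a margin under the rounding of these values, as held for 7.39% of all genes in the higher direction. The log2FC was 0.35 ± 0.07 on day 7 (adjusted p = 5.05e-05), 0.23 ± 0.07 on day 14 (adjusted p = 0.00297) and 0.13 ± 0.07 on day 21 (adjusted p = 0.0921). It had no more than 0.02 ± 0.08 on day 42 (adjusted p = 0.873). The decline from day 7 passed the direct test, at -0.21 ± 0.07 to day 21 (adjusted p = 0.0243) and -0.32 ± 0.08 to day 42 (adjusted p = 0.00190). Single mice of days 7 and 21 overlapped, since *Xbp1* ran from 182.2 to 301.5 CPM on day 21. The counts add spliced and unspliced *Xbp1* mRNA, so splicing was not measured.

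Plasma cells, which secrete antibody and depend on *Xbp1*, are another source of its mRNA. The summed level of their markers had a median of 645.4 CPM in CTRL mice, 635.3 CPM on day 7, 1908 CPM on day 28, the highest median, and 1422 CPM on day 35, with up to 10825 CPM in day 35 mouse 5. Of the 8 tested markers, 1 was higher and 1 lower on day 7, and 5 and 1 on each of days 28 and 35. Over the same groups *Xbp1* had medians of 214.9, 268.6, 225.4 and 235.0 CPM, and the part of plasma cells in its level was not tested. Within groups, r between *Xbp1* and the mean of the markers lay between -0.20 and 0.63, and the highest, on day 35 (rho = 0.59, permutation p = 0.0488; r = 0.63, permutation p = 0.0287), had an adjusted p of 0.109 and fell to 0.39 without the 2 mice farthest from the median.

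*Atf4*, the transcription factor translated under PERK and related kinases, was modestly higher early on. It ran from 109.1 over 128.5 to 171.5 CPM in CTRL mice, from 132.1 over 144.4 to 236.1 CPM on day 7 and from 123.2 over 148.6 to 209.4 CPM on day 14, with overlap on both days. The log2FC was 0.22 ± 0.09 on day 7 (adjusted p = 0.0312) and 0.24 ± 0.08 on day 14 (adjusted p = 0.00920). The call of day 7 was lost without a filter on low counts, in a fit of the 2 groups only, without CTRL mouse 4, 5, 7 or 8, or without day 7 mouse 5, which alone reached 236.1 CPM and without which the value was 0.14 (adjusted p = 0.162). On day 35 the level was that of CTRL mice (0.01 ± 0.08) and lower than on day 14 by -0.24 ± 0.08 (adjusted p = 0.0122). On day 42 the log2FC against CTRL was 0.10 ± 0.10 (adjusted p = 0.479), and the level did not differ from day 14 (adjusted p = 0.226).

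*Ddit3*, encoding the proapoptotic factor CHOP, was the single member that went lower. It ran from 15.8 over 18.2 to 22.7 CPM in CTRL mice, from 12.6 over 14.9 to 18.9 CPM on day 7 and from 13.3 over 14.9 to 18.99 CPM on day 21. On day 21, 9 of 12 mice lay below all CTRL mice and none above. The log2FC was -0.28 ± 0.11 on day 7 (adjusted p = 0.0296) and -0.30 ± 0.11 on day 21 (adjusted p = 0.0117), and lay between -0.20 and -0.09 on the other days, none of which passed the test. The call of day 7 was lost with library size as the only scaling, without a filter on low counts, and without CTRL mouse 2 or day 7 mouse 9 or 10. Day 14 spread most, from 8.82 to 26.04 CPM, and without mouse 2 of that day its log2FC was -0.28 (adjusted p = 0.0147). Values rested on 100 to 327 counts per mouse, and *Ddit3* shares 68 exonic bases with *Mars* on the opposite strand, whose counts were 317% of its own. The treatment of strand in counting was not stated in the sources used here, although the library kit keeps strand. A second record of the same name held 0 counts in all 75 mice.

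*Trib3*, a pseudokinase induced by ATF4 and CHOP, passed the test as higher on days 28 and 35 only. It ran from 5.34 over 6.33 to 8.45 CPM in CTRL mice, from 6.71 over 7.93 to 11.4 CPM on day 28 and from 5.46 over 8.35 to 13.3 CPM on day 35. On day 35, 6 of 12 mice lay above all CTRL mice. Its log2FC was near 0 early (0.06 ± 0.12 on day 7, 0.09 ± 0.11 on day 14) but reached 0.29 ± 0.11 by day 28 (adjusted p = 0.0311) and 0.37 ± 0.11 on day 35 (adjusted p = 0.00870). Day 35 exceeded day 14 by 0.28 ± 0.11 (adjusted p = 0.0278). On day 42 the log2FC against CTRL was 0.20 ± 0.13 (adjusted p = 0.263). That day differed neither from day 14 (adjusted p = 0.514) nor from day 35 (adjusted p = 0.854). The call of day 28 was lost without CTRL mouse 2, 3, 4, 6, 9 or 10 or day 28 mouse 4, 5 or 9, and without a filter on low counts, whereas that of day 35 held without each mouse in turn. It was the only member with a higher level on day 35 than on days 7 and 14, both past the test.

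Between neighbouring days after day 14, no member passed the test. The counts were 0 of 10 for day 21 against 14 (1.03% of all genes), 28 against 21 (0.727%), 35 against 28 (1.27%) and 42 against 35 (0%, 0 genes in all). At an unadjusted p under 0.05 they were 0, 1, 1 and 0 members, beside 2769, 1967, 2067 and 957 of the 16221 genes tested. DESeq2 also gave 0 members in each, with 311, 137, 319 and 0 genes called in all. Day 42 against day 14 gave 4 lower members, *Hspa5*, *Calr*, *Xbp1* and *Serpinh1*, where 34% of all genes differed, 18.8% as lower. That count was 1 without day 42 mouse 2 or 4, and 2 without day 42 mouse 5, 6 or 7. Day 35 against day 14 gave 4 members (43% of all genes) and against day 7 gave 3 (24.1%), and day 21 against day 7 gave 2 (13.9%). Beside day 14 against day 7, the comparisons with 1 member were day 28 against 7 (17.9%), 42 against 7 (17.8%), 28 against 14 (24.5%), 35 against 21 (18.3%) and 42 against 21 (9.4%), in each case *Xbp1* or *Serpinh1*. Day 42 against day 28 gave 0 in edgeR (0.869%), with 2 members at an unadjusted p under 0.05, beside 1794 of all genes tested.

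Mice of the same group differed together in their chaperone levels. Taken as deviations of log2 CPM from the group mean over 75 mice, *Hspa5* and *Calr* had r = 0.87, *Pdia4* and *Calr* 0.84, *Calr* and *Serpinh1* 0.81, and *Hspa5* and *Hsp90b1* 0.76. *Ddit3* was near 0 with *Calr*, *Hspa5*, *Trib3* and *Atf4* (r from -0.00 to 0.09) and reached 0.49 with *Creld2*. *Trib3* stayed at 0.31 or below with every other member. These are descriptions over mice that share library preparation and scaling.

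**Figure D4:**
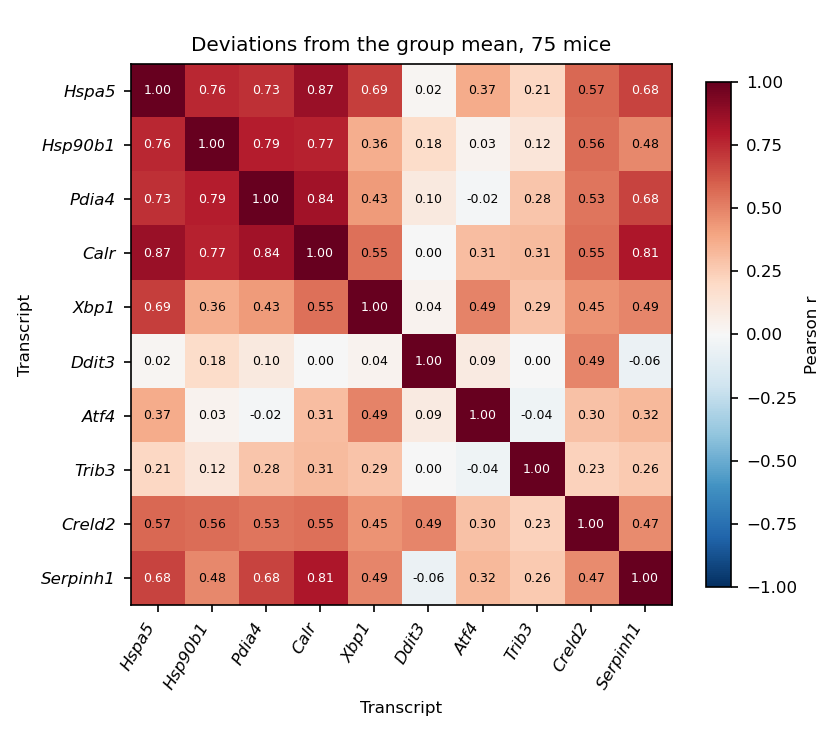
Pearson's r between members (both axes) of the deviations of log2 CPM from the mean of the own group, over 75 mice; red is positive and blue negative. The block of *Hspa5*, *Hsp90b1*, *Pdia4* and *Calr* has r from 0.73 to 0.87, while the rows of *Ddit3* and *Trib3* are pale.

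Within single groups, *Hspa5* and *Hsp90b1* were positively related in all 7, with the adjusted p of r under the threshold in 4 and that of rho in 3 (days 21, 28 and 35). In CTRL mice r was 0.91 (permutation p = 0.000850) and rho 0.76 (permutation p = 0.0145, adjusted 0.0905), and r was 0.61 without the 2 farthest mice. On day 35 r was 0.90 (permutation p = 3e-05), rho 0.89 (permutation p = 0.000230), and 0.90 without those mice. On day 42 r was 0.86 (exact permutation p = 0.0812) and rho 0.43 (exact permutation p = 0.354), and r was -0.46 without the 2 farthest mice, so it rests on those. On day 7 r was 0.13 (permutation p = 0.728) and rho 0.12 (permutation p = 0.759). *Hspa5* and *Creld2* had r from 0.37 to 0.77, with none past the adjusted threshold. *Ddit3* and *Trib3* had r from -0.38 to 0.48 and *Ddit3* and *Atf4* from -0.35 to 0.69, again with none past it.

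The 3 genes most like each member were taken by the same deviations over 75 mice. *Hspa5* was nearest to *Dnajb11* (r = 0.81), its ER cochaperone, to *Hspa8* (0.81) and to *Stip1* (0.77), *Hsp90b1* to *Pdia3* (0.87), *Pdia6* (0.77) and *Canx* (0.73), and *Pdia4* to *Hyou1* (0.76), *Pdia3* (0.73) and *Canx* (0.73). *Calr* was nearest to *Sdf2l1* (0.81), *Pdia3* (0.80) and *Dnajb11* (0.78), and *Creld2* to *Pdia6* (0.83), *Fkbp2* (0.73) and *Znhit1* (0.71). *Serpinh1* was nearest to *Plod3* (0.79), a collagen lysyl hydroxylase, *Dcakd* (0.77) and *Pofut2* (0.76). *Xbp1* was nearest to the cytosolic chaperonin genes *Cct6a* (0.75) and *Cct3* (0.74) and to *Eif4a1* (0.73), and *Atf4* to *Rassf1* (0.78), *Wdr74* (0.76) and *Mmadhc* (0.75). *Ddit3* was nearest to *Irf1* (0.73) and *Ifi35* (0.71), both interferon-responsive genes, and to *D10Jhu81e* (0.68). *Trib3* had the loosest neighbors, *Ndrg1* (0.55), *Nmt1* (0.54) and *Ptx3* (0.53).

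Other genes of the pathway were described as lists. Among 28 tested ER chaperones and folding enzymes outside the members, day 7 had 18 higher and 1 lower (67.9% called against 45.8% of all genes). Day 14 had 15 higher and 2 lower (60.7% called against 62.4% of all genes), and day 42 had 7 higher and 2 lower (32.1% against 24.7%). The median log2FC of day 14 was 0.21 against 0.01 over all genes. *Sdf2l1*, an ER Hsp70 cofactor, went from 11.0 ± 1.79 (SD, n = 10) to 27.6 ± 5.52 CPM (SD, n = 12) on day 14 (log2FC 1.33 ± 0.13, adjusted p = 1.58e-13) and *Calu*, a calcium-binding ER protein, from 361 ± 14.2 to 658 ± 137 CPM (0.86). The lowest were *Ero1b*, an ER oxidase (-0.30), and *Dnajb9*, an ER cochaperone induced by XBP1 (-0.21, from 74.3 ± 7.07 to 64.2 ± 7.17 CPM).

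Of 14 tested sensors and transducers, 6 were higher and 0 lower on day 14 (median 0.10, 42.9% called against 62.4% of all genes), led by *Creb3l1*, an ER-bound transcription factor of collagen-secreting cells (0.90), and *Eif2ak2*, the RNA-activated kinase of eIF2 (0.59). Upper quartile scaling added 1 lower gene. The sensor genes, named after their values were seen, were mixed. *Atf6b* was higher on days 21 and 28 (0.19, adjusted p = 0.00678, and 0.14, adjusted p = 0.0477) and on no other day. *Atf6* had a log2FC of -0.07 on day 14 and was lower on days 21, 28, 35 and 42 (-0.23, -0.23, -0.20 and -0.24), *Ern1* (IRE1) was lower on days 21 and 42 (-0.20 and -0.24), and *Eif2ak3* (PERK) lay between -0.09 and 0.05 and passed the test on no day.

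Of 34 tested ATF4 and CHOP target genes, 21 were higher and 5 lower on day 14 (median 0.35, 76.5% called against 62.4% of all genes). On day 42, 10 were higher and 1 lower (median 0.11, 32.4% called against 24.7% of all genes). The highest on day 14 were *Gdf15*, a stress cytokine, which went from 1.07 ± 0.349 to 7.90 ± 2.29 CPM (2.87), and *Slc7a11*, the cystine transporter, from 2.27 ± 0.537 to 13.1 ± 4.27 CPM (2.51). The lowest were *Slc1a5*, a glutamine transporter, from 186 ± 6.73 to 118 ± 9.79 CPM (-0.66), and *Atf5* (-0.44). Library size and upper quartile scaling gave 7 lower genes in place of 5. *Atf4*, *Ddit3* and *Trib3* themselves had day 14 values of 0.24, -0.20 and 0.09.

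Of 22 tested genes of ER-associated degradation, 9 were higher and 2 lower on day 14 (median 0.09), or 50% called against 62.4% of all genes. *Edem1*, which hands misfolded glycoproteins to degradation, was higher (0.61), as was *Ube2g2* (0.52). *Herpud1*, an ER membrane protein of the degradation complex that is also a known UPR target, fell by 0.79 on day 14, from 230 ± 20.9 to 133 ± 14.9 CPM, and was lower on all 6 days (-0.79 to -0.46). *Ngly1*, which removes glycans, was the other low gene (-0.19).

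Of 36 tested translocon and ER-Golgi transport genes, 26 were higher and 3 lower on day 14 (median 0.25, 80.6% called against 62.4% of all genes). On day 42, 8 were higher and 0 lower (median 0.11, 22.2% called against 24.7% of all genes). On day 14 *Kdelr3*, a receptor that retrieves ER chaperones, went from 9.11 ± 1.68 to 34.4 ± 11.2 CPM (1.91), and *Ssr4* of the translocon was second (0.69). *Sec62* (-0.30) and *Sec63* (-0.13), which act in posttranslational import, were the lowest called.

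Of 19 tested genes of procollagen folding and modification, all passed the test on day 14 (62.4% of all genes did), 16 higher and 3 lower (median 0.76). On day 42, 4 were higher and 1 lower (median 0.19), or 26.3% called against 24.7% of all genes. With the other scalings 15 were higher and 3 lower on day 14. *P4ha3*, a prolyl hydroxylase subunit, went from 2.47 ± 0.721 to 31.8 ± 14.0 CPM (3.68) and *Col1a1* from 331 ± 72.7 to 2472 ± 1163 CPM (2.90). *Colgalt2*, a collagen galactosyltransferase, went from 27.9 ± 3.19 to 10.1 ± 3.74 CPM (-1.46), and *P3h2*, a prolyl 3-hydroxylase, had -0.70. The list holds 3 of the fibroblast markers, so its course and theirs are not independent.

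**Figure D5:**
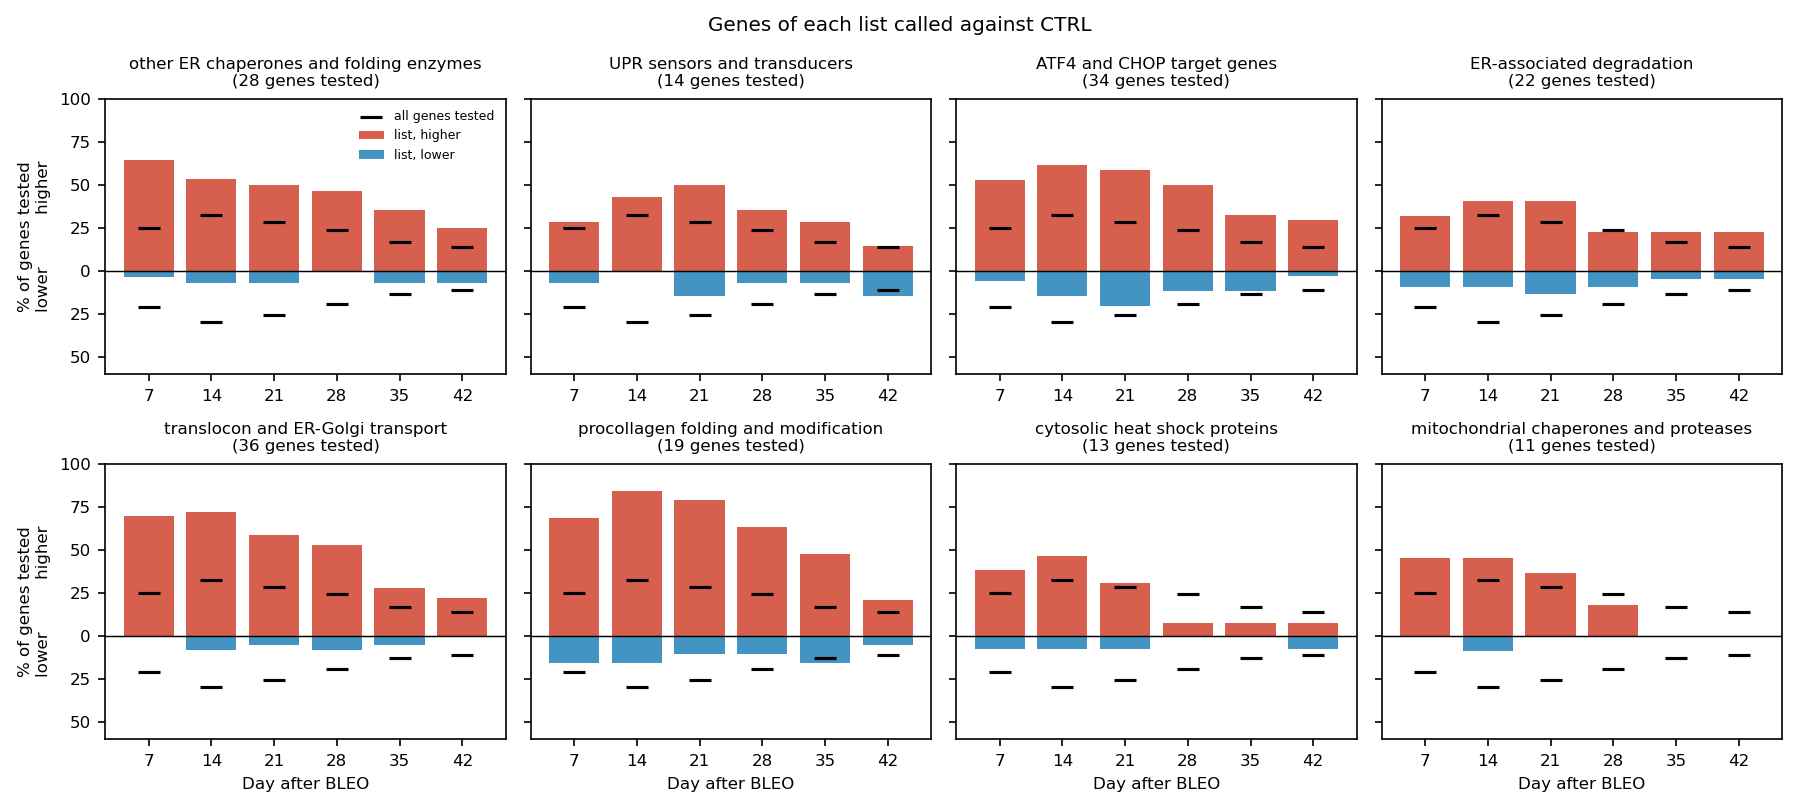
Share of the tested genes of each list (y axis, %) called higher (red, upward) and lower (blue, downward) than CTRL on each day after BLEO (x axis); black marks give the same share over all 16221 genes tested. Procollagen and transport genes have the tallest red bars, on day 14, and the red bars of all lists are shorter on day 42 than on day 14.

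Genes with an ERSE in the promoter window offered a set chosen by sequence. Of 37 such symbols 22 were tested, and on day 14, 9 were higher and 5 lower with a median log2FC of 0.10. Over all genes tested, 62.4% were called on that day, 32.4% as higher and 29.9% as lower, so the number called in the set was near that share. The 4 members in the set gave 3 higher and a median of 0.36. The 18 others in the set gave 6 higher and 5 lower and a median of -0.00, also near the shares of all genes. The others included the chaperone genes *Canx* (0.20 ± 0.06, adjusted p = 0.00157) and *Pdia6* (0.27 ± 0.07, adjusted p = 0.000615), and also *Dnajc3* (-0.04, adjusted p = 0.417), *Syvn1* (0.04, adjusted p = 0.602) and *Derl3* (-0.40, adjusted p = 0.289). The element was therefore present both in genes that were higher and in genes that were not.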

How the data were processed

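RNA of each lobe was made into directional libraries and sequenced. The authors aligned reads with STAR 2.7.0f (version per the labels' processing notes) to GRCm38 with Ensembl release 96, and deposited raw counts per gene without normalization. The counting program and its treatment of strand were not given in the sources used here. All 75 columns were matched to mice by their labels, and all 55536 identifiers were found in GENCODE M21, which is Ensembl 96. From these counts, 1 model with 7 group means was fitted in edgeR 4.0.16 (R 4.3.3) with TMM factors and filterByExpr, leaving 16221 genes, with quasi-likelihood F tests and Benjamini-Hochberg adjustment over all genes at 0.05. Log2 CPM used a prior count of 2. Standard errors belong to the fitted log2FC and SDs to mice. Counting error alone limits values near 3 counts, far below any member, but it also adds to the spread at the 50 to 128 counts of *Trib3*. Correlations used 100000 permutations, and exact permutation for day 42. In 375 pairs of libraries within groups, chi-square over its degrees of freedom was at least 3.97, so none of these pairs was a repeat deposit. Pairs across groups were not compared in this way.

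The members, gene lists, marker lists and motifs were chosen with earlier results of these data known. Named genes were all members, the 2 highest and 2 lowest called on day 14 in each list, and the 3 nearest genes per member. Motif letters are textbook consensus forms. The motif search and the lists under other scalings were added after seeing the data. Genes of the ERSE set were named after their values were seen. Alternatives were DESeq2 1.42.0, other scalings and filters, fits of 2 groups, a replicate block, a fold threshold and leaving out each mouse. The fit was also run on simulated data that gave every gene the same dispersion, unlike the real data, and no result here rests on that run. Python 3.11.15 with numpy, scipy, pandas and matplotlib made the correlations and plots. Promoter windows were those of RefSeq, and all 10 members matched.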

Additional observations from a re-analysis of the deposited data

Results flagged for a closer look

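In groups of 10 or fewer mice, 30 sets of values (10 members in CTRL, day 7 and day 42) were looked at for a mouse far from the others. Of these, 7 had one, where chance gives about 1 in 20 for a single set. The sets are not independent, because chaperone levels varied together between mice. All 7 came from CTRL mouse 2, day 7 mouse 5 and day 42 mouse 1. CTRL mouse 2 was the highest of 10 for *Pdia4* (142.5 CPM, next 122.0), *Calr* (581.4, next 478.5) and *Serpinh1* (401.2, next 329.0). Day 7 mouse 5 was far above the others for *Atf4* (236.1 CPM, next 160.2). Day 42 mouse 1 was the highest of 7 for *Hspa5* (797.4 CPM, next 649.7), *Hsp90b1* (924.7, next 814.1) and *Xbp1* (255.9, next 223.5). Without it the log2FC of *Hspa5* on day 42 was 0.17 (adjusted p = 0.187).

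Effects against the shared CTRL mice differed between days in 19 of 150 direct tests (10 members over 15 pairs of days). The share of all genes that differed ran from 0% (day 42 against 35) to 43% (day 35 against 14), as given above for each pair. Differences between days were thus not particular to the members. *Serpinh1* gave 7, with log2FC of 0.53 from day 7 to 14, 0.49 from day 7 to 21, -0.30 from day 14 to 28, -0.58 from day 14 to 35, -0.70 from day 14 to 42, -0.54 from day 21 to 35 and -0.66 from day 21 to 42. *Xbp1* gave 5, with -0.21 from day 7 to 21, -0.21 to day 28, -0.23 to day 35 and -0.32 to day 42, and -0.20 from day 14 to 42. *Calr* was lower than on day 14 by -0.18 on day 35 and -0.23 on day 42, and *Hspa5* by -0.26 on day 42. *Atf4* was lower on day 35 than on day 7 (-0.22) and day 14 (-0.24), whereas *Trib3* was higher on day 35 than on day 7 (0.31) and day 14 (0.28).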

How the results depend on the processing

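Between 0 and 7 of 10 members were called per comparison, and the counts against CTRL of days 7, 14, 21, 28 and 35 stayed within 1.5 times under other scalings, other filters, DESeq2 and fits of 2 groups. With a log2FC of at least 0.5 in size as well, 1, 3, 2, 1, 0 and 0 members remained on days 7 to 42 and 1 for day 42 against day 14, because most member changes were smaller than that. The share of all genes at that size was not counted, so the members cannot be set against it. For day 42 against CTRL (3 members, 4001 genes in all) the count was 1 without a filter on low counts (3009 genes) and 5 in a fit of the 2 groups only (5997 genes). For day 42 against day 14 (4 members, 5521 genes in all) it was 2 with library size only (5499 genes) and 1 without a filter on low counts (4652 genes). The cause was not tested. Leaving out 1 mouse at a time gave 1 to 3 members for day 42 against CTRL and 1 to 5 for day 42 against day 14. The refits turned the sign of 3 values near 0, *Atf4* on day 35 (-0.027 to 0.049), *Trib3* on day 7 (-0.0067 to 0.10) and *Xbp1* on day 42 (-0.027 to 0.032). Calls were gained for *Ddit3* on day 14 without day 14 mouse 2, for *Xbp1* on day 21 without day 21 mouse 7 and on day 28 without day 28 mouse 3, and for *Trib3* on day 21 without CTRL mouse 1 or day 21 mouse 8. Replicate numbers did not pair the mice (r of same-numbered deviations from -0.54 to 0.57, median 0.01, over 0.1 in 63 of 204 pairs). With the number as a replicate block, 7, 7, 7, 6, 7 and 2 members were called on days 7 to 42 and 5 for day 42 against day 14, *Xbp1* on day 21 being gained and *Hspa5* on day 42 lost against CTRL. In the same order, that block called 7597, 10259, 8977, 7321, 5291, 3775 and 5940 of all genes. With a prior count of 0.5, 4 of the 42 correlations passed, as with 2. The number of mice on day 42 and the counts of *Trib3* and *Ddit3* limit how small a change can be seen.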

Other observations

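Chaperones outside the ER were measured as well. Of 13 tested cytosolic heat shock genes, 1 was higher on each of days 28 and 35 (7.69% called on each, against 43.3% and 29.9% of all genes). On day 14, 6 were higher and 1 lower (median log2FC 0.12, 53.8% called against 62.4% of all genes). The highest were *Hspa8*, the constitutive Hsp70 (0.29, from 520 ± 78.6 to 638 ± 47.7 CPM), and *Stip1*, which links Hsp70 and Hsp90 (0.22), and the lowest called was *Hsf1*, the heat shock factor (-0.24). With library size and upper quartile scaling 4 and 3 were higher. The stress-inducible *Hspa1a* and *Hspa1b*, named after their values were seen, had -0.28 and 0.07 and passed the test on no day, and as near-identical copies they can share reads. Of 11 tested mitochondrial chaperones and proteases, 5 were higher and 1 lower on day 14 (median 0.15, 54.5% called against 62.4% of all genes) and none by edgeR on days 35 and 42. *Grpel1* (0.38) and *Hspa9* (0.33) of the import motor were the highest and *Trap1* the lowest called (-0.12). Macrophage markers moved on all days too, with all 9 markers of monocyte-derived macrophages higher on days 7 to 42 and a summed median of 234.0 CPM in CTRL mice, 3878 CPM on day 14 and 1583 CPM on day 42.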
